A study of Mus musculus with 8 samples.

Results

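The genes described here are 10 that carry fatty acids from circulating lipoproteins into a muscle fiber and prime them for use, namely *Lpl*, *Gpihbp1*, *Angptl4*, *Vldlr*, *Cd36*, *Slc27a1*, *Slc27a4*, *Fabp3*, *Fabp4* and *Acsl1*. They were taken by symbol from a gene count table of 32390 rows, in which each of the 10 symbols names 1 row. The table holds bulk RNA-seq of gastrocnemius, a hindlimb muscle composed mostly of fast fibers, from 4 *Mck*-Cre;*Nox4* fl/fl mice and, as controls, 4 mice with *Nox4* fl/fl alleles alone. *Nox4* encodes an NADPH oxidase that produces hydrogen peroxide. All 8 mice were males aged 21 months according to the sample labels, fed standard chow, and placed by the labels in 1 batch. Both genotypes thus carried floxed *Nox4*, and the controls lacked Cre. Deletion was directed to striated muscle, skeletal more than heart, by placing Cre behind the *Mck* (muscle creatine kinase) promoter. The Cre-carrying genotype is called NOX4-deficient below and KO in the plots.

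Fatty acids reach muscle as triglyceride inside lipoproteins or bound to albumin. Lipoprotein lipase, secreted by the fiber and anchored on the capillary wall by GPIHBP1, frees them from triglyceride, and ANGPTL4 inactivates the lipase. CD36 and the fatty acid transport proteins of the SLC27A family promote their entry, FABP proteins bind them in the cytosol, and acyl-CoA synthetases such as ACSL1 join them to coenzyme A, which traps them in the cell and commits them to oxidation or storage. In muscle this set of genes is known to respond to fasting, exercise and the lipid-sensing PPAR nuclear receptors. Because whole muscle was sequenced, fewer cells of a type and less RNA per cell cannot be told apart for any gene below.

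The libraries held between 16350548 and 19804661 counts on genes, and 12725 rows passed the filter on low counts, all 10 genes among them. Values are CPM (the counts of a gene relative to the size of its library), scaled between libraries by the TMM method, and fold changes are NOX4-deficient over control from edgeR's quasi-likelihood fit. A gene is called changed at an adjusted p under 0.05 together with a log2 fold change beyond 0.5 in either direction. *Nox4* itself drew 85, 48, 35 and 70 reads in the controls (replicates 1 to 4) and 29, 43, 42 and 37 reads in the NOX4-deficient mice, over the gene as a whole and not over the floxed exons alone. Its log2 fold change was -0.65 (SE 0.292, adjusted p = 0.207), and the groups overlapped, so these reads do not separate the genotypes. Without control replicate 1 it was -0.36 (adjusted p = 0.489). The skeletal muscle genes *Acta1*, *Ckm*, *Myh4*, *Tnnt3*, *Ttn*, *Des*, *Mb* and *Ryr1* together held 123000 to 150000 CPM in the controls, against 135000 to 151000 CPM in NOX4-deficient muscle. A list of 12 fasting-responsive genes summed to 5280 CPM in control replicate 4 against 2430 to 3050 CPM in the other 3 controls, and the counts of calls in the 10 genes and in the fasting-responsive and clock lists are also given without that library.

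*Cd36*, *Acsl1* and *Slc27a1* were lower in NOX4-deficient muscle, at 60.9%, 63.5% and 65.4% of control. *Cd36* is a membrane receptor for long-chain fatty acids, *Acsl1* the main long-chain acyl-CoA synthetase of muscle, and *Slc27a1* a transport protein that also has acyl-CoA synthetase activity. Of the 10 genes, 3 were called lower and 0 were called higher, where 3.48% of the 12725 genes tested were called lower and 2.68% higher. These same 3 genes were the ones in which every NOX4-deficient library lay below every control library, an arrangement seen in 8.97% of all genes tested. No gene of the 10 had every NOX4-deficient library above every control library, as 7.2% of all genes did. The log2 fold change was negative for all 10 genes with a median of -0.54, against a median of 0.01 and 47.7% negative over all genes tested. Because the 10 genes were chosen with earlier results of these data known, these comparisons with all genes are not a test of the set.

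**Figure D1:**
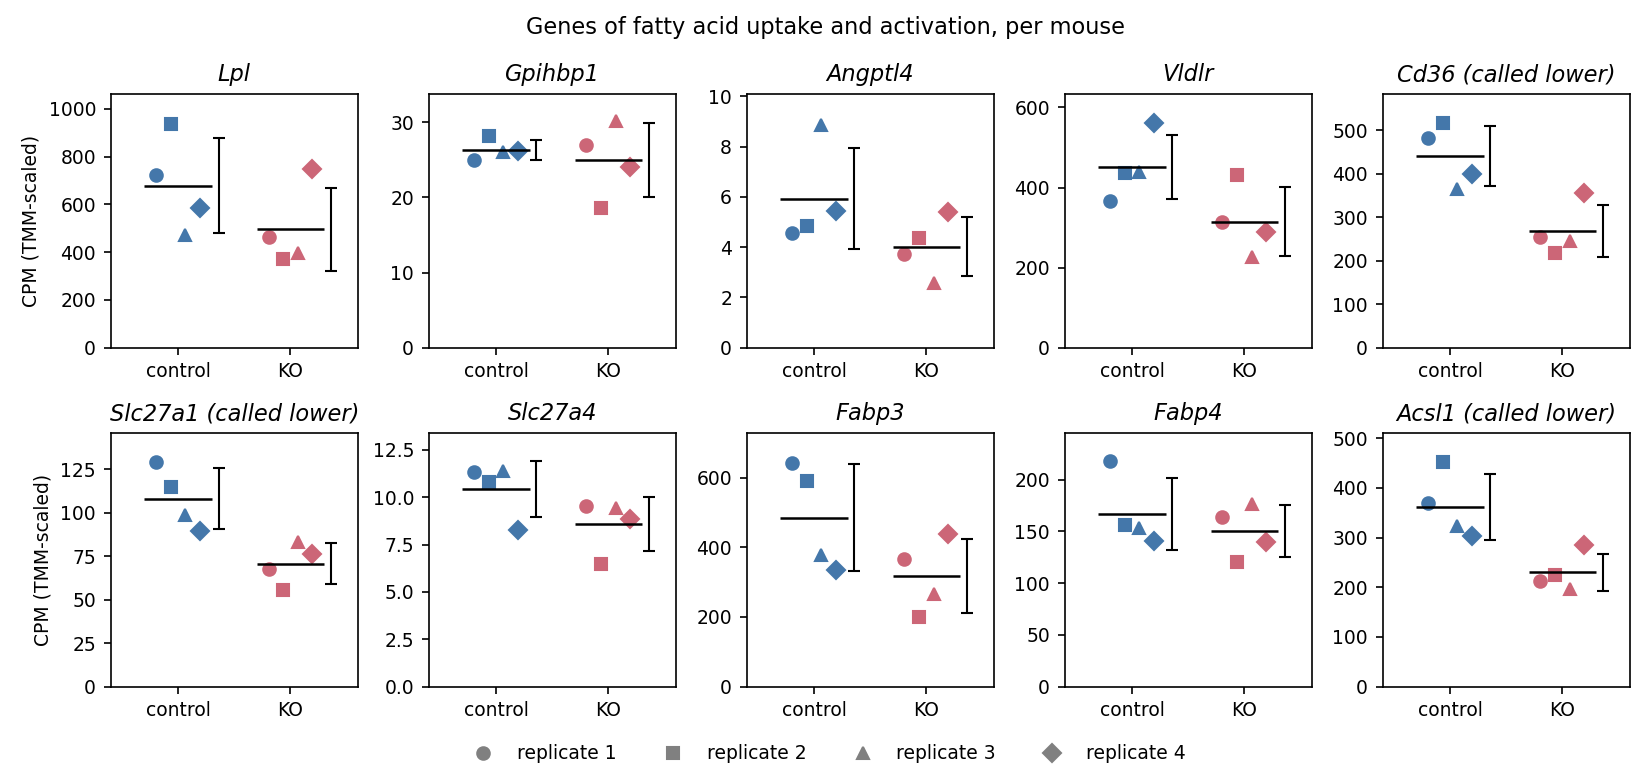
Normalized level of each of the 10 genes in CPM (y axes from 0) for 4 control mice (blue) and 4 NOX4-deficient mice (KO, red), with 1 point per mouse, the marker shape giving the replicate number, the line the mean and the bar the SD. *Cd36*, *Slc27a1* and *Acsl1* show no overlap between genotypes. *Lpl* overlaps through NOX4-deficient replicate 4 (747 CPM), and *Fabp3* through NOX4-deficient replicates 1 (366 CPM) and 4 (439 CPM).

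The 10 genes spanned a wide range of expression. Per kilobase of merged exon (GENCODE M21 gene models), *Fabp3*, the heart and muscle fatty acid binding protein, was the most abundant in control muscle at 590 ± 186 CPM per kilobase (SD, n = 4). *Cd36* followed at 123 ± 19.4 CPM per kilobase. *Lpl* (64.8 ± 19.1), *Vldlr* (44.8 ± 7.97), *Fabp4* (37.2 ± 7.77) and *Acsl1* (34.5 ± 6.31 CPM per kilobase) formed a middle group in which neighbors overlapped in range. *Slc27a1* stood at 18.5 ± 3.0 and *Gpihbp1* at 10.3 ± 0.527 CPM per kilobase, each without overlap with its neighbors in control. *Slc27a4* and *Angptl4* were lowest, at 2.37 ± 0.335 and 1.68 ± 0.565 CPM per kilobase, with overlapping ranges. In NOX4-deficient muscle *Cd36* fell to 74.7 ± 16.8 CPM per kilobase and its range met that of *Lpl* (47.2 ± 16.5), and the range of *Slc27a1* (12.1 ± 2.05) met that of *Gpihbp1* (9.76 ± 1.93). The order set by the means was otherwise the same except that *Fabp4* (33.5 ± 5.54) lay above *Vldlr* (31.3 ± 8.48), with overlapping ranges in both genotypes. The order depends on the merged exon lengths, which join all annotated transcripts, and the transcripts present in these muscles were not measured. In CPM without division by length, *Lpl* had the highest control mean (679), above *Fabp3* (485), *Vldlr* (451) and *Cd36* (441).

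*Cd36* was measured at 482, 516, 366 and 400 CPM in control replicates 1 to 4 and at 255, 217, 246 and 355 CPM in NOX4-deficient replicates 1 to 4. NOX4-deficient replicate 4 was the highest of its group, just below the lowest control, while the other 3 lay well below all controls. The mean went from 441 ± 69.8 to 268 ± 60.2 CPM (SD, n = 4), which is -0.72 on the log2 scale (SE 0.159, 95% confidence interval -1.06 to -0.37, adjusted p = 0.0189). *Slc27a1* was measured at 129, 115, 98.7 and 89.6 CPM in the controls, against 67.9, 55.4, 83.3 and 76.2 CPM in NOX4-deficient muscle. Here the NOX4-deficient library nearest to the controls was replicate 3, not replicate 4. Its mean went from 108 ± 17.5 to 70.7 ± 12.0 CPM, a log2 fold change of -0.61 (SE 0.145, 95% confidence interval -0.93 to -0.30, adjusted p = 0.0243). *Slc27a4*, a related transport protein, had low counts (128 to 213 per library), at 11.3, 10.8, 11.4 and 8.27 CPM in the controls, against 9.57, 6.47, 9.46 and 8.85 CPM in NOX4-deficient muscle. The groups overlapped because control replicate 4 lay below 3 of the 4 NOX4-deficient libraries, and the gene was not called (log2 fold change -0.28, 95% confidence interval -0.64 to 0.07, adjusted p = 0.328). Without NOX4-deficient replicate 2 its log2 fold change was -0.17.

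Promoter sequences were available from RefSeq (build GRCm38.p6) for 6 of the 10 genes, *Vldlr*, *Cd36*, *Slc27a1*, *Slc27a4*, *Fabp3* and *Acsl1*, with 10 annotated starts among them. The windows of 250 bases before to 50 bases after each start were searched on both strands for the nuclear receptor hexamer AGGTCA, the PPAR:RXR element (a pair of these hexamers in the same direction, 1 base apart), the NFE2L2-type element TGACNNNGC, the E-box CACGTG bound by clock transcription factors, and the TATA box TATAAA. Of the 10 windows, 2 held a match. The *Cd36* window held AGGTCA on the opposite strand (read as TGACCT along the gene), a hexamer found in 16.3% of 32851 promoter windows of the same length. The window of the third *Slc27a1* start held CACGTG, found in 7.15% of promoters. No match was found in either *Acsl1* window, and the PPAR:RXR element, present in 0.0396% of promoters, TGACNNNGC (12.4%) and TATAAA (13.6%) were in none of the 10. A match of letters does not show that a factor binds, and the start used in these muscles was not measured. The 250 bases before these starts of *Cd36* (chr5:17835897-17836146, minus strand) and *Slc27a1* (chr8:71570344-71570593, plus strand) are shown because they belong to called genes and hold the matches, which are in capitals.
Cd36: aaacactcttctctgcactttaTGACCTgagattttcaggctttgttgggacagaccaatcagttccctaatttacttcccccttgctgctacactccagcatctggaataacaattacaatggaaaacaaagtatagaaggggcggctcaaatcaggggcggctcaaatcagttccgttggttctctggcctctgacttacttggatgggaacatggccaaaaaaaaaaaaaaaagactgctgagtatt
Slc27a1: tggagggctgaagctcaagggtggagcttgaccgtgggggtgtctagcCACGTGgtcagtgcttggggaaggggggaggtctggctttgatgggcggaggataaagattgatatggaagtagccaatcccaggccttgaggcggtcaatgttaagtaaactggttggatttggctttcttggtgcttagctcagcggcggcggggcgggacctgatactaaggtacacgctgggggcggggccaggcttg
Each sequence runs 5′ to 3′ in the direction of the gene and ends at the base before the start. The *Cd36* stretch has a GC content of 43.2% with 3 CpG dinucleotides, and that of *Slc27a1* 58.4% with 10.

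*Acsl1* was measured at 369, 452, 323 and 303 CPM in the controls, against 213, 224, 197 and 284 CPM in NOX4-deficient muscle. All 4 NOX4-deficient libraries lay below all 4 controls, and NOX4-deficient replicate 4 again came closest to them. The mean went from 362 ± 66.2 to 230 ± 38.0 CPM, a log2 fold change of -0.65 (SE 0.147, 95% confidence interval -0.97 to -0.34, adjusted p = 0.0195). The other long-chain acyl-CoA synthetases did not pass the test, at log2 fold changes of -0.77 for *Acsl3* (adjusted p = 0.116), 0.26 for *Acsl4* (adjusted p = 0.251), 0.24 for *Acsl5* (adjusted p = 0.465) and 0.00 for *Acsl6* (adjusted p = 0.996). Among the 5 *Acsl* genes per kilobase of exon, *Acsl1* held 54.6% to 70.3% of the summed level in control and 51.0% to 59.4% in NOX4-deficient libraries, which overlapped. The share of *Acsl4*, which prefers arachidonic acid, was 9.71% to 10.9% in control and 15.2% to 20.5% in NOX4-deficient libraries and did not overlap. That share rests on *Acsl4* and on every other *Acsl* gene. Of these, *Acsl1* was lower, and so was the mean of *Acsl3* (44.2 CPM in control, 25.8 CPM in NOX4-deficient muscle), which was not called. In CPM the *Acsl4* libraries of control and NOX4-deficient mice overlapped, and no test was made of the share. In the annotation 9.91% of the exon bases of *Acsl1* are overlapped by a gene on the opposite strand (*Gm45244*), which unstranded libraries cannot tell apart.

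The calls of these 3 genes held in all alternatives that used the 8 mice at the same threshold, with adjusted p from 0.000845 to 0.00258 under DESeq2 in R and from 0.00316 to 0.00532 in edgeR without the filter on low counts. They depended on single mice. Leaving out control replicate 2 raised the adjusted p to 0.0574 for *Cd36*, 0.0658 for *Slc27a1* and 0.0560 for *Acsl1*, so that 0 of the 10 genes were called, and leaving out NOX4-deficient replicate 1 (0.0509, 0.0605 and 0.0521) also left 0. Without NOX4-deficient replicate 3 only *Slc27a1* was called, and without control replicate 1 *Slc27a1* alone was lost (adjusted p = 0.0654). All 3 were called without control replicate 4. Their log2 fold changes stayed between -0.87 and -0.51 over all 19 alternatives.

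**Figure D2:**
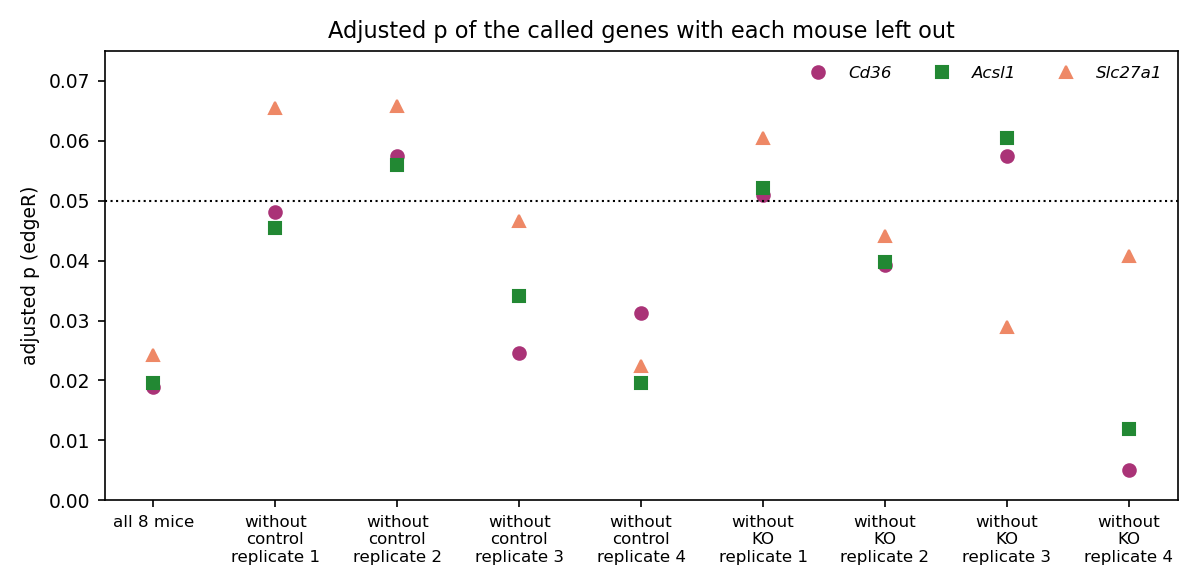
Adjusted p from edgeR (y axis) for *Cd36*, *Acsl1* and *Slc27a1* with all 8 mice and with each mouse left out in turn (x axis), the dotted line marking 0.05. All 3 genes cross the line without control replicate 2 and without NOX4-deficient replicate 1, and *Cd36* reaches 0.00501 without NOX4-deficient replicate 4.

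The 4 genes of lipolysis at the vessel wall gave 0 calls. *Lpl*, which encodes lipoprotein lipase, was measured at 723, 936, 472 and 584 CPM in the controls, against 463, 372, 398 and 747 CPM in NOX4-deficient muscle. NOX4-deficient replicates 1 to 3 lay below the lowest control, while replicate 4 exceeded 3 of the 4 controls. The mean went from 679 ± 200 to 495 ± 172 CPM, and the log2 fold change was -0.46 (95% confidence interval -1.02 to 0.11, adjusted p = 0.318). Without NOX4-deficient replicate 4 it was -0.71 with an adjusted p of 0.0613, and without control replicate 2 it was -0.26 with an adjusted p of 0.588. *Gpihbp1*, made by capillary endothelial cells, was measured at 25.0, 28.2, 26.0 and 26.2 CPM in the controls, against 26.9, 18.6, 30.2 and 24.0 CPM in NOX4-deficient muscle. The control libraries were tightly grouped and lay inside the NOX4-deficient range. Its log2 fold change of -0.08 had a 95% confidence interval of -0.38 to 0.22 (adjusted p = 0.783).

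*Angptl4*, the lipase inhibitor and a gene that PPAR receptors and fasting are known to induce, was the least abundant of the 10 at 49 to 166 counts per library. It was measured at 4.55, 4.84, 8.88 and 5.46 CPM in the controls, against 3.73, 4.35, 2.58 and 5.39 CPM in NOX4-deficient muscle. NOX4-deficient replicates 1 to 3 lay below all controls and replicate 4 fell among them, while control replicate 3 stood above the rest. The log2 fold change was -0.57 (SE 0.262, 95% confidence interval -1.14 to 0.00, adjusted p = 0.217), and it was -0.29 without control replicate 3. *Vldlr*, a receptor that binds triglyceride-rich lipoproteins, was measured at 367, 437, 440 and 561 CPM in the controls, against 313, 431, 226 and 290 CPM in NOX4-deficient muscle. NOX4-deficient replicate 2 lay among the controls and the other 3 lay below them. The mean went from 451 ± 80.2 to 315 ± 85.3 CPM, with a log2 fold change of -0.52 (SE 0.183, 95% confidence interval -0.92 to -0.12, adjusted p = 0.111). Without NOX4-deficient replicate 2 *Vldlr* passed the test (log2 fold change -0.71, adjusted p = 0.0222).

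Neither cytosolic binding protein was called. *Fabp3* was measured at 641, 590, 377 and 334 CPM in the controls, against 366, 199, 265 and 439 CPM in NOX4-deficient muscle. Both genotypes varied widely, and NOX4-deficient replicates 1 and 4 lay within the control range. The mean went from 485 ± 153 to 317 ± 106 CPM, a log2 fold change of -0.61 (SE 0.275, 95% confidence interval -1.23 to 0.00, adjusted p = 0.216), so a fold change of the size of that of *Slc27a1* came with a larger standard error (0.275 against 0.145). In the annotation 19.6% of its exon bases overlap genes on the opposite strand. *Fabp4*, a binding protein of adipocytes and capillary endothelium, was measured at 218, 156, 153 and 140 CPM in the controls, against 164, 121, 177 and 140 CPM in NOX4-deficient muscle. Control replicate 1 lay above all NOX4-deficient libraries, replicates 2 and 4 of the NOX4-deficient mice lay below the lowest control (replicate 4 by less than 1 CPM), and the rest overlapped (log2 fold change -0.15, 95% confidence interval -0.49 to 0.18, adjusted p = 0.604). Of the summed per-kilobase level of 7 *Fabp* genes, *Fabp3* held 92.2% to 95.2% in control and 88.7% to 94.3% in NOX4-deficient libraries. These shares rest on merged exon lengths of 823 bases for *Fabp3* and 4489 bases for *Fabp4*, which join all annotated transcripts. Without division by length the control means were 485 CPM for *Fabp3* and 167 CPM for *Fabp4*.

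**Figure D3:**
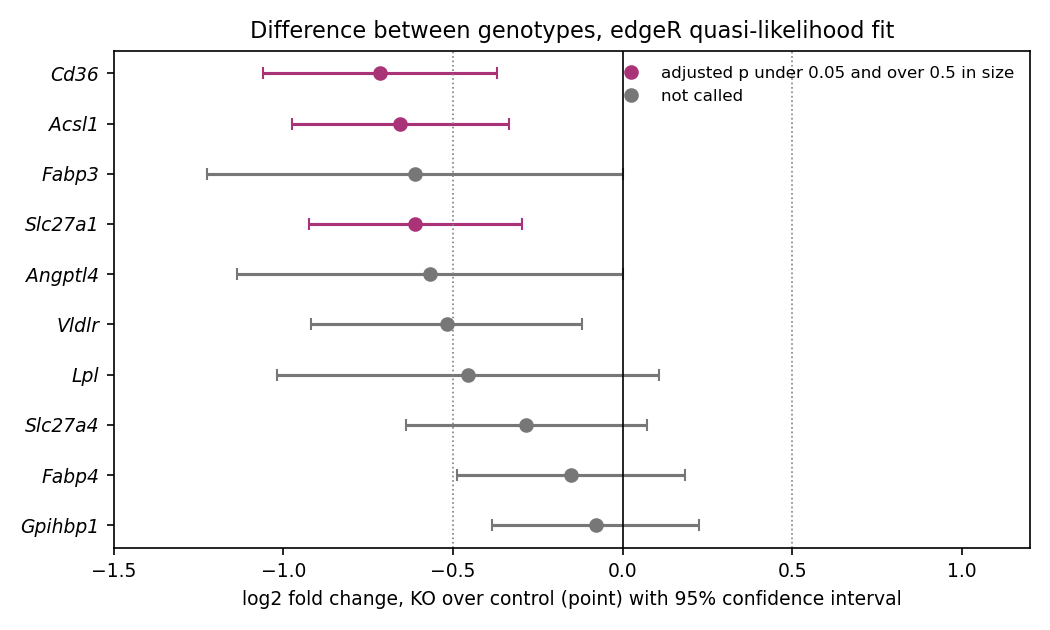
Log2 fold change of NOX4-deficient over control (x axis, points) with its 95% confidence interval (bars) for the 10 genes, ordered by size. Purple marks the 3 called genes, dotted lines mark -0.5 and 0.5, and the intervals of *Lpl*, *Slc27a4*, *Fabp4* and *Gpihbp1* cross 0, as do, by less than 0.01, those of *Fabp3* and *Angptl4*.

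Single libraries were high or low across several of the genes. NOX4-deficient replicate 4 was the highest of its group in 5 of the 10 genes and the lowest in 0, and NOX4-deficient replicate 2 was the lowest in 7. Control replicate 2 was the highest control in 4 genes and the lowest in 0, and control replicate 4 was the lowest control in 5. *Lpl*, *Cd36* and *Acsl1* were each highest in control replicate 2 among controls and in NOX4-deficient replicate 4 among NOX4-deficient mice. The same libraries had the highest summed level of 8 slow-fiber markers, at 725 CPM against 332 to 443 CPM in the other 3 controls and at 1280 CPM against 428 to 701 CPM in the other 3 NOX4-deficient mice. Of these 8 markers 0 were called (1 was called higher without control replicate 2) and all 8 had positive log2 fold changes (median 0.64). Their part in the levels of *Lpl*, *Cd36* and *Acsl1* was not tested.

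None of the other genes listed for this pathway was called. Of 56 further genes listed for lipase maturation and lipoprotein receptors, transport and caveolae, binding, activation and endothelial fatty acid transport signaling, 36 passed the filter on low counts, 0 were called lower and 0 were called higher. The median log2 fold change of the 36 was 0.07, with 10 negative and 26 positive. *Cav1*, which encodes the caveolar coat protein caveolin-1, came nearest to a call, at 0.37 with an adjusted p of 0.0425 but below the minimum fold change, and its libraries did not overlap. *Furin*, a protease that cleaves the lipase, was at -0.28 (adjusted p = 0.105), *Slc27a3* at -0.82 (adjusted p = 0.232) and *Acsf2* at 0.69 (adjusted p = 0.0821). *Vegfb*, whose protein signals to endothelium and is known for promoting fatty acid transport across it, was at 0.13 (adjusted p = 0.672). The lipase activator *Apoc2* and the genes *Apoa5*, *Fabp2*, *Fabp6* and *Acsbg2* had no counts in any library.

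Activated fatty acids enter mitochondria through the carnitine shuttle, and 10 genes of this step were listed, all of which were tested. *Mlycd*, whose product malonyl-CoA decarboxylase removes the inhibitor of the shuttle, was lower (log2 fold change -0.83, SE 0.140, adjusted p = 0.00476), with a mean of 123 CPM in the controls, against 68.9 CPM in NOX4-deficient muscle. *Acacb*, whose product makes that same inhibitor at the mitochondrial surface, was also lower (log2 fold change -0.56, SE 0.127, adjusted p = 0.0194), from 399 to 270 CPM. These were the 2 called genes of the list, which act in opposite directions on malonyl-CoA, and 0 were called higher (median log2 fold change -0.14). *Mlycd* was called with any mouse left out, whereas *Acacb* was not called without control replicate 2 or 4 or NOX4-deficient replicate 1 or 3. The carrier *Slc25a20* was at -0.42 (adjusted p = 0.0882) and *Cpt2* at -0.16 (adjusted p = 0.565). *Cpt1b*, the muscle form of the shuttle's first enzyme, was counted at 0.880 CPM in control, and 81.4% of its exon bases are overlapped in the annotation by *Gm44502* on the same strand, so its counts are uncertain.

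**Figure D4:**
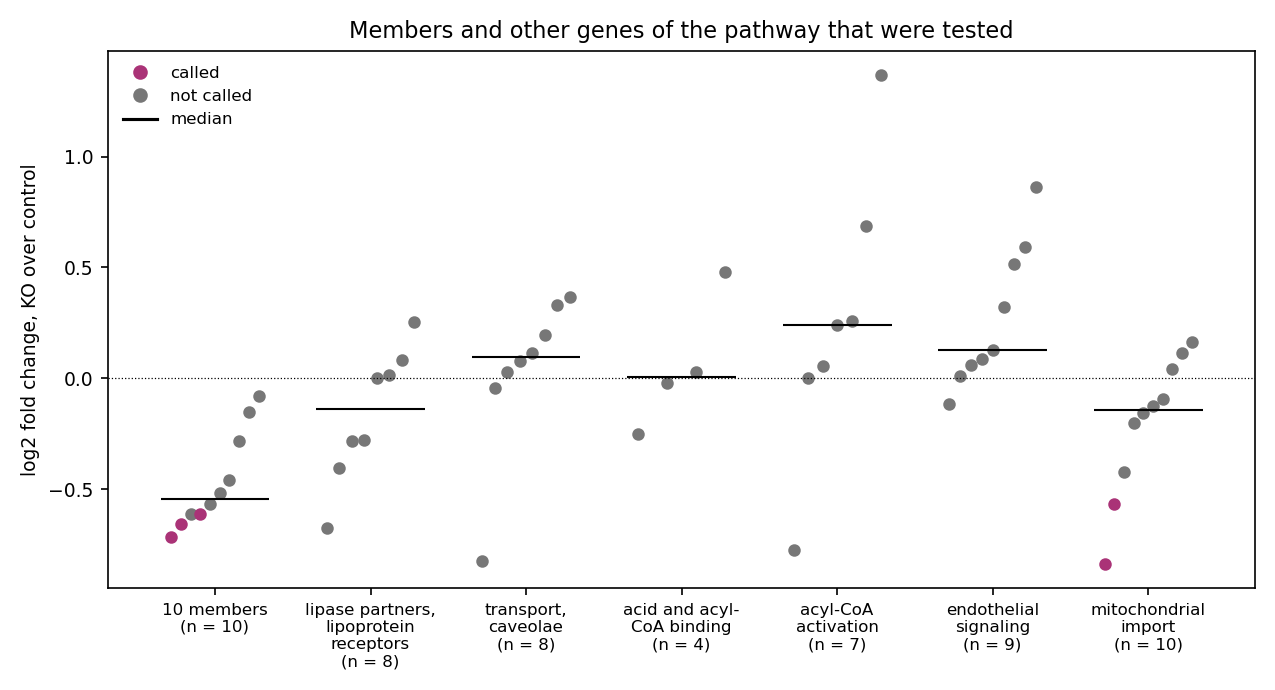
Log2 fold change of NOX4-deficient over control (y axis) for each tested gene, with the 10 genes at the left, followed by 5 groups of the further pathway genes and by the genes of mitochondrial import. Purple points are called genes and lines are medians. The median of the 10 genes is -0.54, and called genes appear only among them and among the import genes.

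Genes known to respond to PPAR receptors were mixed. Of 23 listed, 21 were tested, and 6 were called lower and 1 higher, against 3.48% and 2.68% of all genes tested. The median over the 21 was -0.27 on the log2 scale. The acyl-CoA thioesterases *Acot2* (-2.31, adjusted p = 2.34e-05) and *Acot1* (-3.34, adjusted p = 7.32e-05), the peroxide-degrading catalase *Cat* (-1.31, adjusted p = 5.54e-05), the lipid droplet protein *Plin5* (-1.74, adjusted p = 0.000733) and the acyl-CoA dehydrogenase *Acadl* (-0.64, adjusted p = 0.0264) were lower on the log2 scale, and so was *Pdk4*, whose product slows glucose oxidation (-1.54, adjusted p = 0.0288). *Txnip*, which restrains glucose uptake and is not a gene of fatty acid oxidation, was higher (0.90, adjusted p = 0.00114). *Acot1* and *Acot2* are near-identical copies, so reads could be split between them. The genes of the list that were tested and not called, most of them enzymes of fatty acid oxidation, lay between -0.69 (*Ucp3*) and 0.32 (*Cidec*) on the log2 scale.

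Several marker lists moved with genotype beside these genes. The lists were chosen with earlier results of these data known, and 3.48% of all genes tested were called lower and 2.68% higher. Of the 12 fasting-responsive genes, 9 were called lower, among them *Lpin1*, *Trim63*, *Eif4ebp1*, *Cdkn1a* and *Fbxo32*, and 0 higher (median log2 fold change -1.4), and their sum was 2430 to 5280 CPM in the controls, against 936 to 1210 CPM in NOX4-deficient muscle. The largest control means in that sum were those of *Fbxo32* (1017 CPM), *Trim63* (1005 CPM) and *Lpin1* (718 CPM). Without control replicate 4, 7 of the fasting-responsive genes were called lower. Of 17 clock genes tested, 3 (*Npas2*, *Arntl* and *Nfil3*) were called lower and 5 (*Per3*, *Hlf*, *Bhlhe41*, *Dbp* and *Ciart*) higher (median 0.20), and without control replicate 4 these counts were 3 and 4. With each mouse left out in turn, 3 to 5 clock genes were called higher, the lowest count being reached without control replicate 1 or 2 or NOX4-deficient replicate 1, 2 or 3. Of 3 erythroid marker rows tested, *Hba-a1* and *Hbb-bs* were higher, with sums of 47.6 to 52.7 CPM in the controls, against 72.3 to 159 CPM in NOX4-deficient muscle. The part of feeding state, time of day and blood in the levels of *Cd36*, *Acsl1* and *Slc27a1* was not tested.

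Lists of markers of other cell types of muscle were measured beside the 10 genes. The 6 adipocyte-defining markers (*Adipoq*, *Plin1*, *Cfd*, *Retn*, *Lep* and *Cidec*) summed to 14.6 to 80.8 CPM in the controls, against 20.3 to 74.3 CPM in NOX4-deficient muscle, with 0 called. Control replicate 1 had the highest of these sums and also the highest *Fabp4*, and without it the log2 fold change of *Fabp4* was 0.00. In the wider list of 14 adipocyte genes, 12 were tested and 1 was called, *Pnpla2*, a triglyceride lipase that muscle fibers also express. The sums of this wider list did not overlap (373 to 563 CPM in the controls, 251 to 359 CPM in NOX4-deficient muscle), and *Pnpla2* alone made up 356 CPM of the control mean and 157 CPM of the NOX4-deficient mean. The 17 endothelial markers, all tested, summed to 677 to 784 CPM in the controls, against 750 to 849 CPM in NOX4-deficient muscle, with 1 called higher (*Vwf*) and a median log2 fold change of 0.12. The 12 macrophage markers, 11 of them tested, summed to 48.0 to 127 CPM in the controls, against 25.2 to 64.6 CPM in NOX4-deficient muscle, with 1 called lower (*Cd163*). All 11 had negative log2 fold changes, with a median of -0.59, and *Cd163* was not called without control replicate 2 or NOX4-deficient replicate 1 or 4. The 10 fibroblast and tendon markers gave 0 calls at 443 to 767 CPM against 462 to 753 CPM, and the 10 fast-fiber markers gave 0 calls at 130000 to 157500 CPM against 139000 to 165000 CPM. The part of these cell types in the levels of the 10 genes was not tested.

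**Figure D5:**
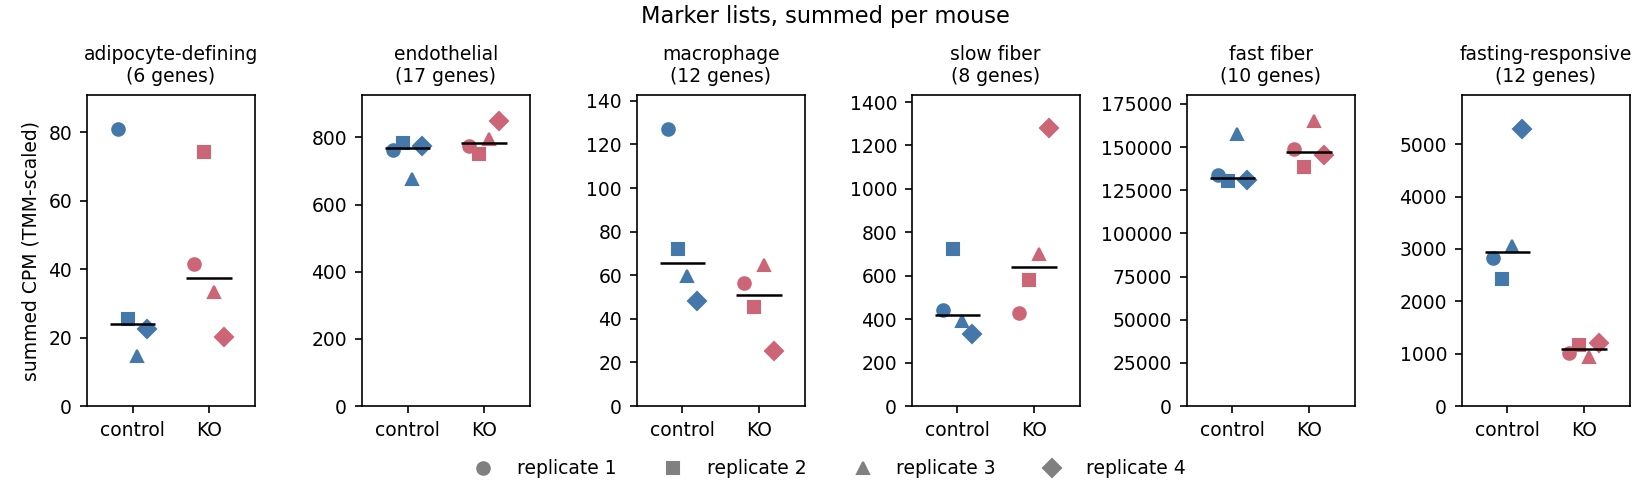
Summed normalized level in CPM (y axes from 0) of 6 marker lists in 4 control (blue) and 4 NOX4-deficient (KO, red) mice, with 1 point per mouse, the marker shape giving the replicate number and the line the median. The fasting-responsive sums separate the genotypes (2430 to 5280 against 936 to 1210 CPM), while the adipocyte-defining, endothelial, macrophage, slow-fiber and fast-fiber sums overlap.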

How the data were processed

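Poly(A) RNA of gastrocnemius from 8 mice, purified on columns, was made into unstranded libraries, read from both ends, and processed with an nf-core pipeline. GRCm39 and STAR are named in the submitters' processing notes. The authors deposited raw, unnormalized read counts for each gene and mouse. These were fitted by edgeR 4.0.16 under R 4.3.3 (TMM, filterByExpr, robust quasi-likelihood fit, genotype as the only term), with Benjamini-Hochberg adjustment over 12725 rows. CPM values and SDs are over 4 mice. p-values measure the spread between these mice. Libraries held 16350548 to 19804661 counts, and the biological coefficient of variation was 0.174. The fit was tested on simulated data.

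The 10 genes and all lists were chosen with earlier results of these data known. Named beside the 10 genes are *Nox4*, of each other list the called genes (at most 5 per direction by smallest p), and the defining markers of cell types. Other genes named were chosen after their values were seen. Exon lengths and overlaps come from GENCODE M21 (GRCm38), a different build from that of the counts, and promoters from RefSeq GRCm38.p6. Alternatives were other scalings and filters, thresholds, a replicate block, each mouse left out, DESeq2 1.42.0 and pydeseq2 0.5.4.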

Additional observations from a re-analysis of the deposited data

Results flagged for a closer look

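Over 40 groups of 4 values, 4 held a library that stood apart from the other 3 by Dixon's ratio of gap to range, where chance gives about 1 in 20 groups. None of these 4 was a level of the 10 genes. *Nox4* was at 1.74 CPM in NOX4-deficient replicate 1 against 2.17 to 2.21 CPM in the other 3 (ratio 0.918). The adipocyte-defining markers summed to 80.8 CPM in control replicate 1 against 14.6 to 25.5 CPM (ratio 0.836). In control replicate 3 the fast-fiber markers summed to 157500 CPM against 130000 to 134000 CPM (ratio 0.867) and the skeletal muscle markers to 150000 CPM against 123000 to 125000 CPM (ratio 0.909). *Myh4* and *Tnnt3* belong to both of these lists, so the sums are not independent of each other.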

How the results depend on the processing

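Of 190 results for the 10 genes over 19 alternatives, 175 kept their direction and their side of the threshold, 12 lost a call, 1 gained a call and 2 changed sign. The number of the 10 genes called lower was 3 in the reported fit, 0 at an adjusted p under 0.01, and 0 to 4 with each mouse left out (*Vldlr* is the fourth, without NOX4-deficient replicate 2). The 2 sign changes were *Gpihbp1* at 0.04 without NOX4-deficient replicate 2 (range -0.17 to 0.04 with each mouse left out) and *Fabp4* at 0.00, just above 0, without control replicate 1 (range -0.23 to 0.00). Among the further pathway genes, *Acsl3* was called lower (1 gene) with DESeq2 in R, with pydeseq2 and with the replicate block, and the count was 0 to 1 with each mouse left out. *Cav1* was called higher (1 gene) with no minimum fold change. The groups share replicate numbers, but same-numbered mice correlated in their deviations at 0.223, 0.147, 0.0410 and 0.0412, so the numbers were not taken as a pairing. With the replicate block 3 of the 10 genes were called lower and *Nox4* was at -0.57 (adjusted p = 0.253). Counts over all genes were 784 in the reported fit, 933 with the block, 252 at an adjusted p under 0.01 and 499 to 712 with each mouse left out. *Angptl4* and *Slc27a4* had the fewest counts of the 10 genes, and their standard errors (0.262 and 0.163) lay within the range of the other 8.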
